A study of Mus musculus with 4 samples.

Results

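The fatty acid binding proteins (FABPs) form a family of small intracellular carriers, here followed through 9 mouse genes: Fabp1, Fabp2, Fabp3, Fabp4, Fabp5, Fabp6, Fabp7, Fabp9 and Fabp12. Members were taken from the annotation of the array platform: a probe set counted where it named only 1 of these genes, which gave 13 of 41345 probe sets and 9 of the 22180 named genes. The probe set with the highest mean over the 4 arrays stands for its gene, and the others are given beside it: Fabp3 has 2 probe sets, Fabp5 has 4, and each other member has 1. Gene expression was measured in EO771, a mouse mammary carcinoma cell line, on 4 arrays. In the treated group (2 arrays) the line received recombinant mouse A-FABP, the adipose family member encoded by Fabp4, at 100 ng/ml in the medium. In the control group (2 arrays) it received PBS. Both groups had first grown for 24 hours to a confluence of 70% or more, in the same medium and with no genetic change named. The labels do not state how long the treatment lasted. The sample titles name the arrays of a group biological replicates. The control arrays' free-text field also mentions the protein, while their titles and source names mark them as controls. All samples come from 1 cell line.

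FABPs fold into a barrel that encloses a fatty acid or a related lipid, and they carry it to membranes, enzymes and the nucleus. A-FABP is abundant in fat cells and macrophages, binds hormone-sensitive lipase, hands ligands to the nuclear receptor PPAR-gamma and is also secreted into blood, so the protein given to these cultures is one that a tumour can meet from outside. The other members are named for the tissues where they were found. Fabp1 encodes the liver form, Fabp2 the intestinal form, Fabp3 the heart and muscle form (also described in mammary gland), Fabp5 the epidermal form, a carrier for PPAR-delta, Fabp6 the ileal bile acid carrier, Fabp7 the brain form and Fabp9 the testis form. Fabp12 is a less studied relative.

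In EO771 cells the data show 2 bright members, Fabp4 and Fabp3, and 7 dim ones. Fabp4 lay at 13.31 ± 0.03 (SD, n = 2) on the log2 scale with A-FABP and at 13.19 ± 0.01 with PBS, so the gene that encodes the added protein gave a bright signal with and without it. No member differed past the threshold of a limma adjusted p under 0.05. The largest difference was that of Fabp2, 1.41-fold lower with A-FABP (log2 difference -0.50 ± 0.08 SE), at a dim level. Differences are A-FABP minus PBS throughout. Where several probe sets read a gene, they did not all give the same picture: the bright Fabp3 set lay at 0.03 and the dim one at -0.36.

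Of the 9 members, 5 have an entry in the RefSeq promoter table (build GRCm38.p6): Fabp1, Fabp2, Fabp3, Fabp6 and Fabp7. The 100 bases before the start are printed for Fabp2, the member with the largest difference, for Fabp3, the bright member that has an entry, and for Fabp1, which holds both motifs searched. The motifs are TATAAA, the core of the TATA box, and AGGTCA, the half-site that PPARs and related nuclear receptors recognise. Both strands were searched (TTTATA and TGACCT on the other strand), neither motif overlaps the other, and both were chosen after the sequences had been seen. Capitals mark a match, and all 3 genes lie on the + strand, at chr3:122894972-122895071 for Fabp2, chr4:130308638-130308737 for Fabp3 and chr6:71199779-71199878 for Fabp1.
Fabp2: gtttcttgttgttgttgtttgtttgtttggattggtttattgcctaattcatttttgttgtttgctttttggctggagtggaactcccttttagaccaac
Fabp3: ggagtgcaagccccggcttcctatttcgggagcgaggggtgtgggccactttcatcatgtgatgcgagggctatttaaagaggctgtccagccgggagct
Fabp1: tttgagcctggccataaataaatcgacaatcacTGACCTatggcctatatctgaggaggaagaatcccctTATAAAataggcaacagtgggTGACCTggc
In the Fabp1 window TATAAA begins 30 bases before the start, and AGGTCA stands on the other strand at 67 and 9 bases before it. The Fabp6 window holds TATAAA on the other strand, 29 bases before the start. The windows of Fabp2, Fabp3 and Fabp7 hold neither motif. Of 32851 windows of this length in the table, 5.56% hold TATAAA and 5.88% hold AGGTCA on either strand. These letters describe the windows, and the arrays measured no binding there.

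**Figure D1:**
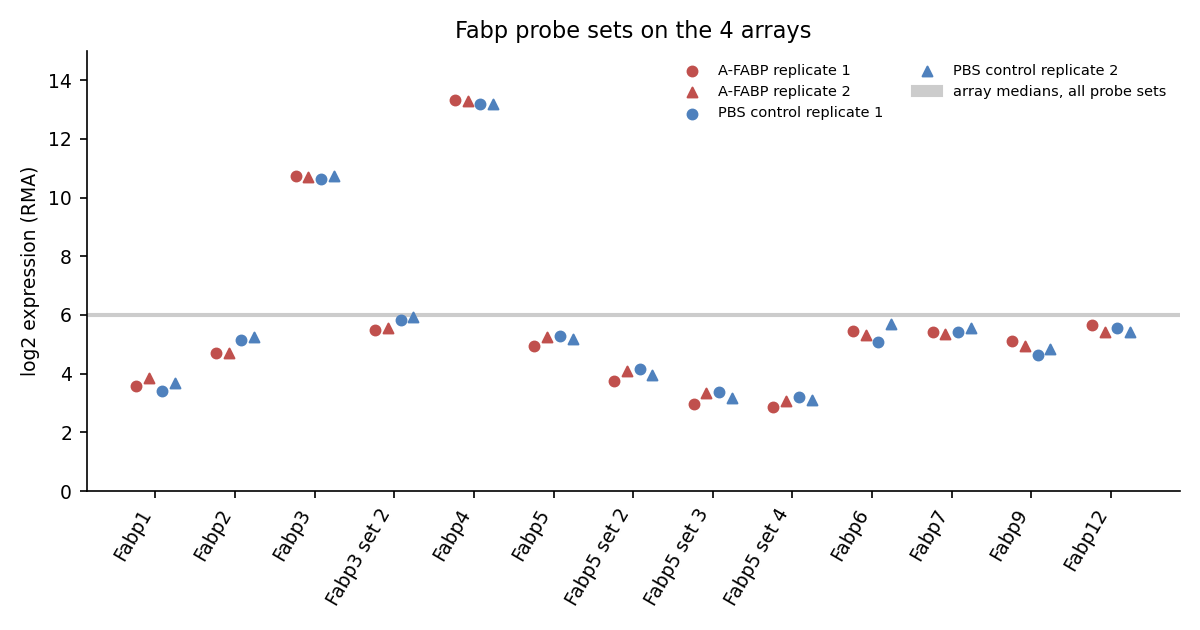
Deposited log2 values of the 13 Fabp probe sets (horizontal axis) on the 4 arrays, with A-FABP arrays in red and PBS arrays in blue, and circles and triangles for replicates 1 and 2. Fabp4 and 1 of the 2 Fabp3 sets stand far above the grey band, which spans the medians of the 4 arrays, and the other 11 sets lie below it.

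Signals of different probe sets cannot be set against each other, because each set has its own response. The share of probe sets that a member outshone on its own array is therefore given only to say whether it was bright or dim. The arrays had medians of 5.95 to 6.03 over all probe sets. Fabp4 read 13.33 and 13.29 on the A-FABP arrays and 13.20 and 13.18 on the PBS arrays, brighter than 99.8% of probe sets on each array. Between 69 and 97 of the 41345 probe sets were brighter. Both A-FABP arrays stood above both PBS arrays, by little: the difference was 0.11 ± 0.08 SE (95% CI -0.10 to 0.33), or 1.08-fold, with a limma adjusted p of 0.521. The interval leaves room for a level up to 1.26-fold of the control and down to 0.931-fold. The sign of the Fabp4 difference was the same under each scaling tried (0.11 to 0.18) and with each array left out (0.09 to 0.14).

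Fabp3, the fatty acid carrier of heart and skeletal muscle, was the other bright member. Its brighter set read 10.73 and 10.69 on the A-FABP arrays and 10.64 and 10.73 on the PBS arrays, brighter than 94.8% to 95.2% of probe sets. The groups overlapped, and the difference was 0.03 ± 0.08 SE (95% CI -0.21 to 0.26, limma adjusted p = 0.905), with a sign that turned to -0.014 under cyclic loess scaling and to -0.020 without PBS replicate 1. The other Fabp3 set read 5.50 and 5.55 on the A-FABP arrays and 5.84 and 5.93 on the PBS arrays. Here the groups did not overlap, and the difference was -0.36 ± 0.08 SE (95% CI -0.60 to -0.12, limma adjusted p = 0.296, unadjusted p = 0.0140). Across scalings it ranged from -0.25 to -0.36. Which set stands for Fabp3 therefore decides whether the gene reads near 0 or below 0, without a call in either case. The mean of both sets gave -0.17. All genes with a mean of 5 to 6, where the dim set lies, had a median difference of -0.15 with an SD of 0.21. The dim set's unadjusted limma p was 0.0511 under cyclic loess. RefSeq lists pseudogenes for Fabp3 and for Fabp5, and whether any probe set also reads such a copy was not tested.

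Fabp5, the epidermal member, often present beside Fabp4 in fat cells and macrophages, was dim at all 4 of its probe sets. The representative set read 4.93 and 5.25 on the A-FABP arrays and 5.28 and 5.18 on the PBS arrays. Its difference was -0.14 ± 0.14 SE (95% CI -0.53 to 0.26, limma adjusted p = 0.660). The groups overlapped, and the low value belonged to A-FABP replicate 1. Without that array the difference was 0.021. The other 3 sets had means of 3.99, 3.21 and 3.06 over the 4 arrays and differences of -0.13, -0.13 and -0.19. In all 4 sets A-FABP replicate 1 was the lowest array and PBS replicate 1 the highest, so the sets repeated 1 pattern in which the arrays of a group differed by up to 0.36. These sets are readings of the same 4 samples and are not independent evidence. In the set at 3.06 the groups did not overlap, and its difference was still -0.10 without A-FABP replicate 1.

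**Figure D2:**
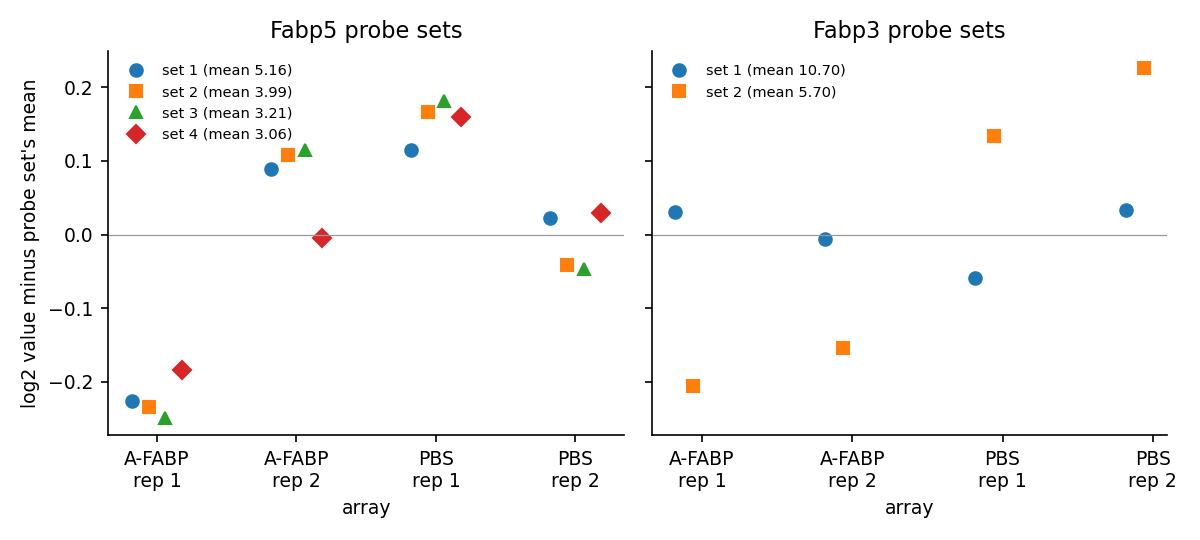
Values of the 4 Fabp5 probe sets (left) and the 2 Fabp3 probe sets (right) on each array, as log2 value minus that set's mean over the 4 arrays. The Fabp5 sets share their lowest array, A-FABP replicate 1, while the dim Fabp3 set separates the groups and the bright one does not.

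Fabp2, the carrier of dietary fatty acids in the intestinal lining, gave the largest difference of the family. It read 4.70 and 4.70 on the A-FABP arrays and 5.16 and 5.24 on the PBS arrays. The treated arrays were the lower pair, and the gap between the groups exceeded the gap between replicates, which was at most 0.085. The difference was -0.50 (95% CI -0.73 to -0.27), with an unadjusted limma p of 0.00403 and an adjusted p of 0.296. It ranged from -0.38 to -0.50 across scalings and from -0.45 to -0.54 with 1 array left out. These readings were brighter than 22.9% to 31.8% of probe sets. Genes with mean levels of 4 to 5 had a median difference of -0.11 with an SD of 0.25, those at 5 to 6 a median of -0.15, and the dimmest genes, under 4, a median of -0.002. A difference at or below that of Fabp2 was found in 1.98% of all genes.

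Fabp9, the testis form, pointed the other way. It read 5.12 and 4.95 on the A-FABP arrays and 4.62 and 4.82 on the PBS arrays, without overlap of the groups. Its difference was 0.31 ± 0.12 SE (95% CI -0.03 to 0.65, limma adjusted p = 0.345, unadjusted p = 0.0620). Across scalings it was 0.31 to 0.42, and with 1 array left out 0.21 to 0.41. A difference at or above this was found in 4.49% of all genes.

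The remaining members were dim, and their groups overlapped. Fabp1, the liver form, read 3.59 and 3.84 on the A-FABP arrays and 3.41 and 3.67 on the PBS arrays, a difference of 0.17 (95% CI -0.24 to 0.59). Its 2 replicate arrays differed by 0.25 in each group, more than the groups did, and with 1 array left out the difference ranged from 0.05 without PBS replicate 1 to 0.30 without PBS replicate 2. Fabp6, which binds bile acids in the ileum, read 5.47 and 5.31 on the A-FABP arrays and 5.07 and 5.69 on the PBS arrays. The PBS arrays lay 0.62 apart, the largest replicate gap of any member, and the difference of 0.01 (95% CI -0.66 to 0.68) became -0.07 without A-FABP replicate 1, -0.30 without PBS replicate 1 and 0.32 without PBS replicate 2. Fabp7, the brain form, read 5.42 and 5.35 on the A-FABP arrays and 5.40 and 5.54 on the PBS arrays. Its difference was -0.09 (95% CI -0.35 to 0.18), 0.03 under cyclic loess, and -0.16 to -0.02 with 1 array left out. Fabp12 read 5.64 and 5.41 on the A-FABP arrays and 5.54 and 5.43 on the PBS arrays, a difference of 0.04 (95% CI -0.29 to 0.38) that was -0.074 without A-FABP replicate 1. The limma adjusted p of these 4 genes ran from 0.601 for Fabp1 to 0.990 for Fabp6.

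**Figure D3:**
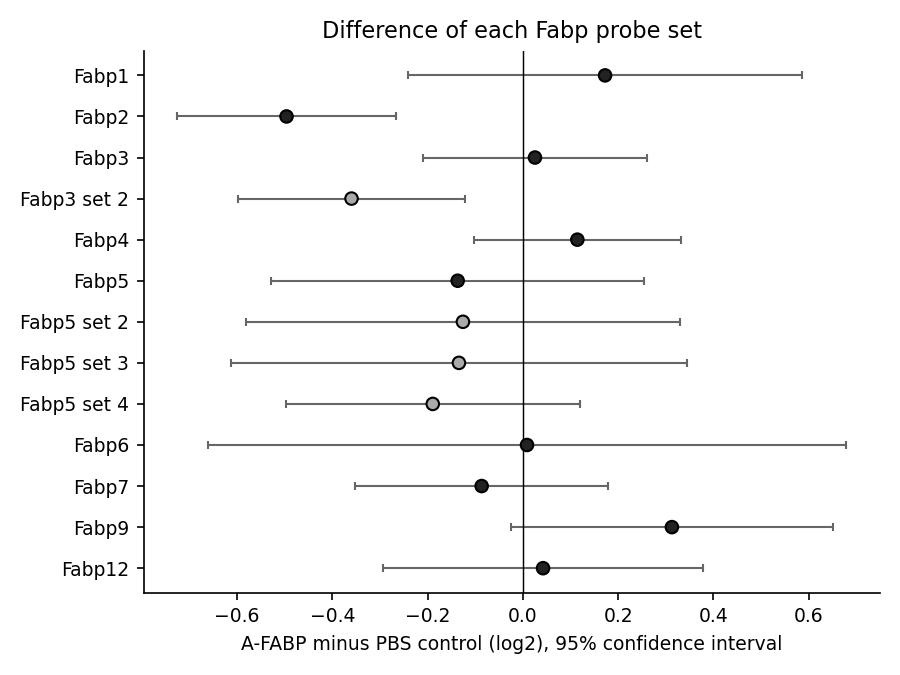
Difference between A-FABP and PBS arrays for each Fabp probe set on the log2 scale, with the 95% confidence interval of the limma fit. Black points stand for the gene and grey points are further probe sets; the intervals of Fabp2 and of the dim Fabp3 set lie wholly below 0, before any adjustment for the number of probe sets.

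Counted over the family, 6 genes lay above 0 and 3 below, with a median difference of 0.03 against -0.01 for all genes; other scalings gave family medians of 0.08 to 0.13. At an unadjusted limma p under 0.05, 1 of 9 members was lower, where 8.24% of all genes were, and 0 of 9 were higher, where 4.81% were. The A-FABP arrays lay wholly below the controls in 1 member (27.5% of all genes) and wholly above them in 2 (26% of all genes). These counts are near or under the background. At the adjusted threshold 0 of 41345 probe sets passed (0%), and the lowest adjusted p was 0.296. Before adjustment, 6258 probe sets (15.1%) had a p under 0.05. The balance of the background depends on scaling and on the settings of the fit: 1828 genes were lower and 1066 higher as deposited. Median centring gave 1048 and 1812, and trend and robust settings gave 1425 and 1889. In a two-sided exact permutation test of a single gene, groups of 2 arrays allow no p below 0.33. Fabp2, Fabp4 and Fabp9 reached that value, as does every gene whose groups do not overlap, 11857 of 22180. The test therefore adds nothing to the overlap counts.

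**Figure D4:**
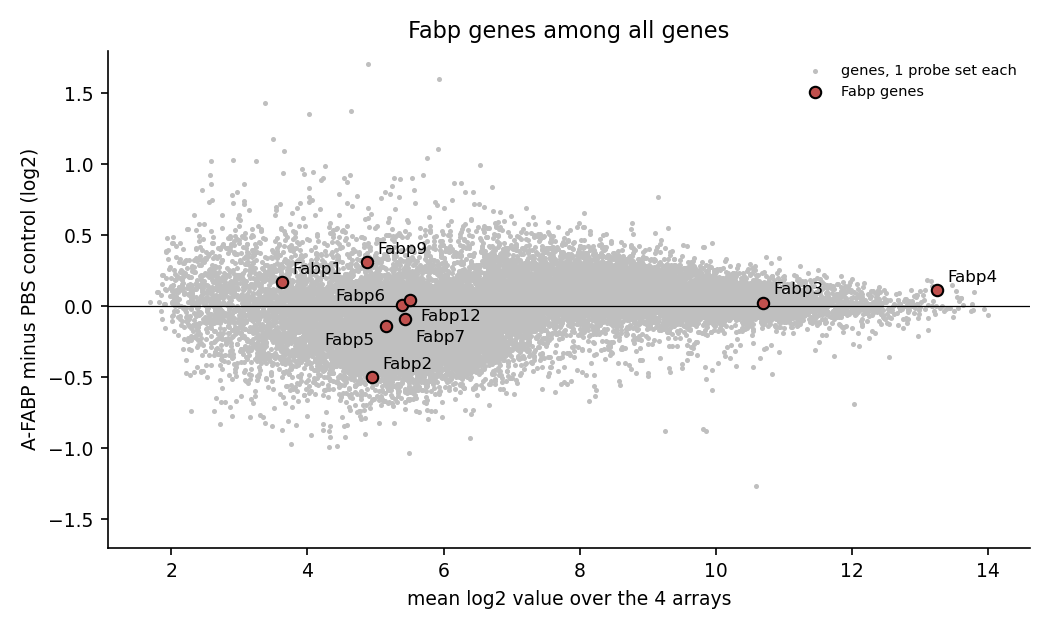
Mean log2 value over the 4 arrays (horizontal) against the difference between A-FABP and PBS (vertical) for all genes in grey, 1 probe set each, with the 9 Fabp genes in red. Fabp2 lies at -0.50 and Fabp9 at 0.31 in the dim part of the plot, where differences spread most, and Fabp4 lies at the bright end at 0.11.

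Fabp5, Fabp9, Fabp4 and Fabp12 are neighbours on mouse chromosome 3 in RefSeq's gene order (GRCm38.p6), with Pmp2 between Fabp5 and Fabp9. Pmp2 encodes the myelin protein P2, a further member of the same carrier superfamily. Within this run Fabp4 was the bright gene. Pmp2 was dim, reading 4.85 and 4.85 on the A-FABP arrays and 5.03 and 4.68 on the PBS arrays, as were Fabp5, Fabp9 and Fabp12. The closest protein-coding gene beyond Fabp12 is Impa1, an inositol phosphatase gene, reading 9.25 and 9.39 on the A-FABP arrays and 9.22 and 9.30 on the PBS arrays. On the other side lies the adaptor gene Pag1, reading 4.80 and 4.85 on the A-FABP arrays and 4.97 and 4.85 on the PBS arrays. The differences in the run went both ways, from -0.14 for Fabp5 to 0.31 for Fabp9, and no neighbour passed the adjusted threshold.

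Fabp4 marks fat cells, macrophages and capillary endothelium in tissue, so markers of these cells were read beside it. In bulk RNA, fewer cells of a type and less RNA per cell cannot be told apart. Adipocyte markers (9 of 10 measured) had mean levels of 5.68 to 5.72 with A-FABP and 5.75 to 5.88 with PBS. Adiponectin (Adipoq) read 4.97 to 5.42 and leptin (Lep) 4.76 to 5.23 over the 4 arrays, both below the array medians. Of the 9, 4 lay above the median level of all probe sets. These were Lipe at a mean of 7.54, Plin1 at 6.29, Retn at 6.14 and Car3 at 6.06. Macrophage and leukocyte markers (10 of 10) had mean levels of 6.35 to 6.37 and 6.48 to 6.51. Ptprc, the pan-leukocyte antigen CD45, read 3.997 and 3.996 on the A-FABP arrays and 4.58 and 4.32 on the PBS arrays, and Adgre1, a surface receptor of macrophages, read 4.35 to 4.78. Cd68, a lysosomal protein, was bright at 12.70 to 12.84. Cd14, a receptor for bacterial lipopolysaccharide, and Csf1r, the receptor for macrophage colony-stimulating factor, lay above the array medians. They were the only 2 of the 10 with the treated arrays as the higher pair (26% of all genes), with differences of 0.28 and 0.16. Of the 10, 7 lay below 0, and in 5 the treated arrays were the lower pair (27.5% of all genes). These 5 were Ptprc (-0.45), Cd68 (-0.08), Itgam (-0.34), Fcgr1 (-0.30) and C1qa (-0.37). Endothelial markers (8 of 8) had mean levels of 5.59 to 5.67 and 5.70 to 5.71. The adipocyte, macrophage and endothelial lists had median differences of -0.06, -0.14 and -0.05. After median centring these were 0.003, -0.08 and 0.02, and under cyclic loess -0.08, -0.09 and 0.04. All genes with a mean of 5 to 6 had a median difference of -0.15, and those at 6 to 7 one of -0.10. At an unadjusted limma p under 0.05, 2 adipocyte, 3 macrophage and 1 endothelial marker were lower, beside 8.24% of all genes, 0 were higher, beside 4.81%, and 0 passed adjustment. RMA values have no 0, so absence cannot be read from them, and the part of such cells in the Fabp4 signal was not tested.

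Among mammary epithelial markers, 9 of 10 were measured, with mean levels of 5.98 to 6.02 with A-FABP and 6.08 to 6.13 with PBS. Their median difference was -0.13, and -0.07 after median centring. All genes had a median of -0.15 at mean levels of 5 to 6, and of -0.10 at 6 to 7. Keratin 8 (Krt8) was bright at 8.74 to 8.85. Epcam, at 4.45 to 5.05, and keratin 14 (Krt14), at 5.30 to 5.83, were dim, and E-cadherin (Cdh1) lay just above the medians at 6.20 to 6.39. Krt18, Krt19, Krt7 and Cldn4 had means of 6.01 to 6.17 over the 4 arrays, close to the median of 5.99 for all probe sets. Elf5 was dim, at a mean of 4.92. Of the 9 markers, 6 lay above that median, only Krt8 far above it, and 3 lay below.

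Markers of the tissues for which the other members are named were read too, and 10 of 25 lay above the median level of all probe sets. Hepatocyte markers, the setting of Fabp1, had a median level of 5.75 over 5 genes and a median difference of -0.18. Enterocyte markers, for Fabp2 and Fabp6, had 5.91 over 6 and -0.14. Striated muscle markers, for Fabp3, had 6.44 over 6, above the array medians, and -0.14. Glial markers, for Fabp7, had 5.39 over 4 and -0.19, and spermatid markers, for Fabp9 and Fabp12, 5.22 over 4 and -0.10, although 1 of them, the sperm tail gene Odf1, was bright at 12.37 to 12.42. Of these 25 markers 4 were lower at an unadjusted limma p under 0.05, beside 8.24% of all genes, 0 were higher, beside 4.81%, and 0 passed adjustment. All 5 medians stayed below 0 under the other scalings but were smaller, down to -0.02 for spermatid and -0.04 for enterocyte markers under cyclic loess. As deposited, all genes with a mean of 5 to 6 had a median difference of -0.15, and those at 6 to 7 one of -0.10. Of all 22180 genes, 11618 lay below 0. The Fabp2 difference of -0.50 stands beside differences below 0 in 5 of 6 enterocyte markers (4 of 6 after median centring), and the Fabp9 difference of 0.31 beside differences below 0 in 4 of 4 spermatid markers (2 of 4 after median centring). Their part in these differences was not tested.

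Genes that work with FABPs were read in 5 lists. Fatty acids enter the cell through transporters, are activated to acyl-CoA by the Acsl enzymes, are carried by FABPs and act on nuclear receptors or are stored in lipid droplets. No gene of the lists passed the adjusted threshold, so values are given without calls. Related binding proteins (5 of 6 measured) had a median difference of -0.08, with 4 of 5 below 0, and a median of 0.04 under cyclic loess. Rbp2, an intestinal retinol carrier, lay at -0.25 ± 0.11 SE, Crabp2, a retinoic acid carrier, at -0.09, and the retinol carrier Rbp7 at -0.08, which was 0.04 under cyclic loess. Uptake genes (11 of 12) had a median of -0.08, with 7 below 0, and medians of -0.03 to -0.01 under the other scalings. Median levels were 5.65 for related binding proteins and 5.66 for uptake genes. All genes with a mean of 5 to 6 had a median difference of -0.15. The fatty acid translocase Cd36 was dim, at 3.92 ± 0.14 (SD, n = 2) with A-FABP and 4.02 ± 0.06 with PBS. Slc27a5, a transport protein and acyl-CoA synthetase of liver, lay at -0.28 ± 0.15 SE, and Vldlr, a lipoprotein receptor, at -0.20 ± 0.12 SE. In both the treated arrays were the lower pair (27.5% of all genes). Caveolin (Cav1), a membrane protein, was bright, at 10.91 ± 0.06 against 10.80 ± 0.01, with the treated arrays as the higher pair (26% of all genes).

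Activation genes (8 of 10) had a median difference of 0.06, with 5 above 0. In those 5 the treated arrays were the higher pair (26% of all genes), and in 2 they were the lower pair (27.5%). Of the 8, 7 lay above the median level, where 4857 of 12545 genes had the treated arrays as the higher pair. All genes with a mean of 7 to 9 had a median of 0.09, and those with 9 to 11 one of 0.05. Acsl5 lay at 11.30 ± 0.01 (SD, n = 2) with A-FABP against 11.14 ± 0.002 with PBS, a difference of 0.17 (95% CI -0.05 to 0.38). Acsl4, which prefers polyunsaturated fatty acids, lay at 0.15 and the acyl-CoA binding gene Acbd5 also at 0.15. At an unadjusted p under 0.05, 0 of 8 were called. Lipid receptor genes (12 of 13) had a median of -0.03, with 8 below 0, and 0.03 after median centring. Ppard, the receptor served by Fabp5, was bright, reading 10.62 and 10.65 on the A-FABP arrays and 10.59 and 10.61 on the PBS arrays. Its difference was 0.04, and -0.004 under cyclic loess. Pparg, the receptor served by Fabp4, was dim, reading 4.29 and 4.51 on the A-FABP arrays and 4.42 and 5.03 on the PBS arrays, with overlapping groups. The retinoid receptor genes Rarb, at -0.23 ± 0.11 SE, and Rxrg, at -0.20 ± 0.11 SE, had the treated arrays as the lower pair (27.5% of all genes). Nr1h4, the bile acid receptor FXR, which switches on Fabp6 in the ileum, lay at 0.26 ± 0.15 SE.

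Lipolysis and droplet genes (13 of 14) had a median difference of -0.09, with 10 below 0, and after median centring -0.03, with 7 below 0. The list's median level was 6.33. All genes with a mean of 6 to 7 had a median difference of -0.10, and those at 5 to 6 one of -0.15. At an unadjusted limma p under 0.05, 3 of 13 were lower, against 8.24% of all genes, and 0 were higher. Cidea, a droplet protein of fat cells, lay at -0.47 ± 0.08 SE, at 5.19 against 5.67. The lipase gene Pnpla3 lay at -0.33, and G0s2, an inhibitor of the lipase ATGL, at -0.31. Each of the 3 had a limma adjusted p of 0.296 to 0.319. Lipe, which encodes hormone-sensitive lipase, the binding partner of A-FABP, read 7.47 and 7.58 on the A-FABP arrays and 7.43 and 7.69 on the PBS arrays, with overlapping groups and a difference of -0.04 that turned to 0.03 after median centring.

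**Figure D5:**
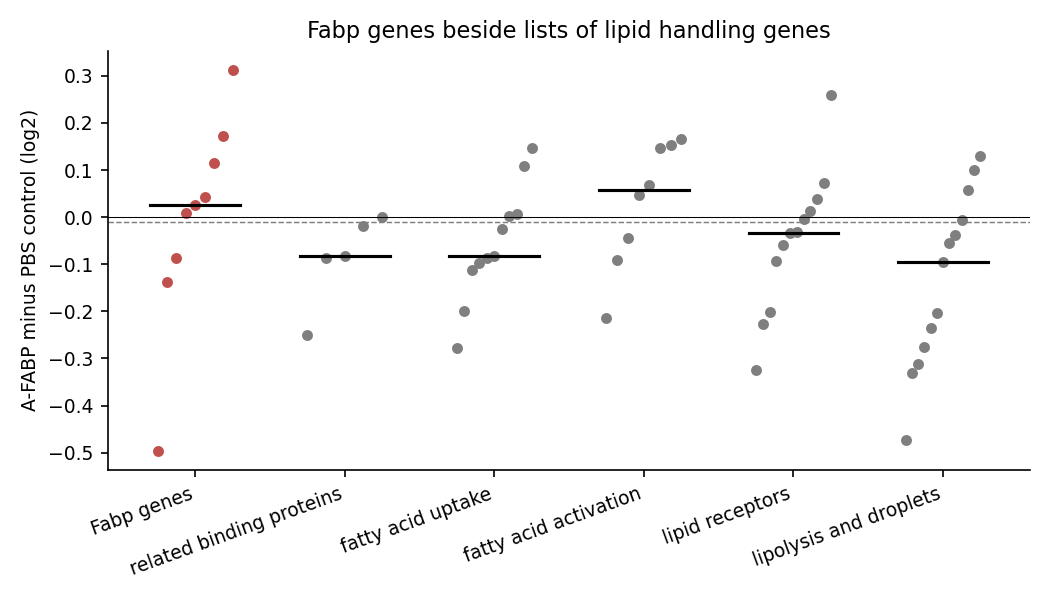
Difference between A-FABP and PBS (log2) for the 9 Fabp genes in red and for 5 lists of lipid handling genes in grey, 1 point per gene, with list medians as black bars and the median of all genes as a dashed line. The medians run from -0.09 for lipolysis and droplet genes to 0.06 for activation genes, with 0.03 for the Fabp genes.

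The genes whose pattern over the 4 arrays was most like that of a member were found by the root mean square distance between profiles, each centred on its own mean, among genes brighter than the median probe set. For Fabp4 these were Fblim1, Mettl14 and Ube2j1, at distances of 0.0040 to 0.0046 log2 units. Within 0.05 of Fabp4 lay 2297 genes, these 3 included, so a profile with such small differences is common. For Fabp5 they were Mroh5, Fam166c and Fendrr (0.012 to 0.017), with 55 genes within 0.05. For Fabp2 they were Ifna4, Zfp36 and Id2 (0.021 to 0.027), with 27 genes within 0.05. With 4 arrays such likeness is a description only.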

How the data were processed

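Total RNA of 4 EO771 cultures was hybridised to single-colour arrays after biotin labelling. The deposited table holds log2 values made by the authors, 1 per probe set and array; the submitters' processing notes name RMA and Partek 6.6. The labels name no array design, probe sequences or genome build. Groups came from the titles.

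Of 41345 probe sets, 23521 name 1 gene in GEO's platform annotation, 1814 several and 16010 none; 1082 genes have several probe sets. No probe set naming several genes held a member. Differences were fitted across the whole table with lmFit and eBayes of limma 3.58.1 (R 4.3.3), two-sided, with Benjamini-Hochberg adjustment (2 residual and 1.91 prior degrees of freedom), checked on simulated data. SE and intervals come from that fit. For arrays, their number limits the precision. Named genes were all members, in each lipid list the 3 with the lowest p plus Pparg, Ppard, Lipe and Cd36, the 3 nearest profiles, and, outside this rule, marker genes and chromosomal neighbours. Members and lists were chosen with earlier results of these data known. Alternatives covered scaling, a level filter, eBayes settings, the replicate block, averaging of probe sets and leaving out each array.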

Additional observations from a re-analysis of the deposited data

How the results depend on the processing

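No member passed the adjusted threshold under any alternative run, and 0 probe sets were called in each. Fabp2, Fabp4, Fabp9 and Fabp1 kept their direction in every alternative that gave a value. Cyclic loess turned Fabp3 to -0.014 and Fabp7 to 0.034, and the cause of these turns was not tested. Averaging probe sets turned Fabp3 to -0.17, as that mean takes in the dim set at -0.36. With 1 array left out, Fabp1 ranged from 0.05 to 0.30, Fabp7 from -0.16 to -0.02, Fabp3 from -0.020 to 0.071, Fabp5 from -0.29 to 0.021, Fabp6 from -0.30 to 0.32 and Fabp12 from -0.074 to 0.16. With trend and robust settings the SE of Fabp4 was 0.03 and its unadjusted limma p 0.00850 (0.217 as reported), with an adjusted p of 0.208.

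Genes at an unadjusted p under 0.05 numbered 1828 lower and 1066 higher. They were 1048 lower and 1812 higher after median centring, and 1062 lower and 979 higher after cyclic loess. With only probe sets above the median level, which tests 12545 genes, they were 865 lower and 1443 higher. With trend and robust settings they were 1425 lower and 1889 higher. With 1 array left out they ranged from 772 to 1554 lower and from 362 to 705 higher. Groups did not overlap in 11857 of 22180 genes, and in 7430 of 12545 with only probe sets above the median level. That filter left values for Fabp3 and Fabp4 alone.

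The replicate numbers did not pair the arrays: deviations of same-numbered arrays correlated at -0.0089 over probe sets. With the replicate number as a block the Fabp2 difference was -0.50 ± 0.08 SE (limma adjusted p = 0.377), and 1464 genes were lower and 723 higher. Limits are the 2 arrays per group, the low signal of 7 members, and probe sets whose sequences were not used here.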
